A study of Mus musculus with 22 samples.

Results

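Heat shock proteins are chaperones: they hold unfolded proteins, refold them or pass them on for degradation. Many of their genes are switched on by heat shock factor 1 when misfolded protein accumulates in the cytosol, and Hspa5 answers in the same way to the unfolded protein response of the endoplasmic reticulum (ER). Several members, among them Hspa8 and Hsp90aa1, are also made at high levels in unstressed brain cells, and glia are known to raise the small heat shock proteins after injury.

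The 9 genes described here were taken by symbol from the deposited count tables and were found in both of them, among 20668 genes in nuclei and 16304 genes in whole cells. They were the small heat shock proteins Hspb1 (Hsp27, called Hsp25 in the mouse) and Cryab (alpha-B crystallin), the stress-inducible Hsp70 genes Hspa1a and Hspa1b, the constitutive Hsp70 of the cytosol, Hspa8 (Hsc70), the Hsp70 of the ER, Hspa5 (BiP), Hsph1 (Hsp105/110, which exchanges the nucleotide of Hsp70), Hsp90aa1 (cytosolic Hsp90 alpha) and Dnajb1 (Hsp40, which activates the Hsp70 ATPase). The mice were 11-week-old male ob/ob mice, which lack leptin and are obese and diabetic, and each library came from 1 mouse. FGF1 mice received 3 µg of fibroblast growth factor 1 into a cerebral ventricle, and vehicle mice received PBS by the same route and were pair-fed to the intake of the FGF1 mice. Nuclei were isolated from frozen hypothalamic punches on Day 1 (3 FGF1 and 3 vehicle mice) and Day 5 (2 and 2), and whole cells were prepared by warm enzymatic digestion of the mediobasal hypothalamus in a separate cohort on Day 5 (6 and 6), from which the authors removed neurons.

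The tables held 24965 nuclei and 54890 cells, with 2721087 to 16345981 UMIs (unique molecular identifiers, each standing for a captured transcript) per nuclear library and 2652897 to 11866269 per cell library. The Day 1 FGF1 nuclei were shallower than the vehicle nuclei, at a median of 2029 to 2816 against 3178.5 to 3776 UMIs per nucleus. The median ribosomal share per nucleus was 2.08% in FGF1 mouse 1 and 1.19% in vehicle mouse 2, and 0.816% to 0.895% in the other Day 1 libraries. Barcode sequences present in more than 1 library numbered 318 in nuclei and 1791 in cells. Nuclear types carry the authors' labels, and whole-cell clusters carry the authors' cluster number with a name given here from marker genes and written as "-like". Levels are CPM, from the UMI counts summed over the nuclei or cells of a type in 1 mouse. The sums were scaled to the total of the genes tested in that type, adjusted by the trimmed mean of M-values (TMM). These totals differ between types, so levels compare mice within a type and are not on a common scale between types. In Day 1 FGF1 mouse 1, Hspb1 scaled to all UMIs was 138 in ependymal nuclei, 350 in astrocytes and 12.4 in unmapped neurons. The CPM used here were 268, 455 and 12.6. Genes were tested with edgeR's quasi-likelihood test and called at a Benjamini-Hochberg false discovery rate (FDR) below 0.05 over all genes tested in that type.

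The promoters of 3 members are shown because they carry, or are near copies of each other around, the sequence bound by heat shock factors. The 120 bases before the RefSeq transcription start (GRCm38.p6) are printed for Hspb1 (chr5:135887799-135887918, plus strand), Hspa1a (chr17:34972157-34972276, minus strand) and Hspa1b (chr17:34959239-34959358, minus strand), with matches to the heat shock element GAANNTTC in capitals.
Hspb1: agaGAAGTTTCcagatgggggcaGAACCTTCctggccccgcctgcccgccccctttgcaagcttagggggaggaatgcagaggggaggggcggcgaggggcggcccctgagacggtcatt
Hspa1a: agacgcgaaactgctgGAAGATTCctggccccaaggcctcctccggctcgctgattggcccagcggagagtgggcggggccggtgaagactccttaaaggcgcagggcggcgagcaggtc
Hspa1b: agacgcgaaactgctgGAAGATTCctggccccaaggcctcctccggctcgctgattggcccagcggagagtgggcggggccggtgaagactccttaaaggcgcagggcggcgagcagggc

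Hspb1 held 2 matches, 117 to 110 and 97 to 90 bases before its start, and Hspa1a and Hspa1b held 1 each, 104 to 97 bases before theirs. In the 250 bases before the start, 6.69% of 32851 RefSeq mouse promoters held GAANNTTC and 7.17% held the other arrangement, TTCNNGAA, which Hsph1 had as TTCTCGAA. The same 250 bases of Hspa1a and Hspa1b were 98.8% identical. The Hspa5 promoter held an ER stress element, which is CCAAT, any 9 bases and CCACG on either strand, as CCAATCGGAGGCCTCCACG from 65 to 47 bases before the start. That element was found in 0.113% of the promoters. Dnajb1 had none of these motifs in its windows. The promoters of Cryab, Hspa8 and Hsp90aa1 were not searched. A match is a description of the sequence only. Reads of near-identical copies can be split between genes: 34.0% of 98-base windows at the 3′ end of Hspb1, 48.1% of those of Hspa8 and 30.8% of those of Hsp90aa1 occur in pseudogenes, and Cryab and Hspa1a overlap a gene on the opposite strand, so these levels carry that uncertainty.

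The first question was whether FGF1 changed these genes 1 day after the injection. Over 18 nuclear types, 162 pairs of a gene and a type were measured and 64 passed the filter on low counts. FGF1 raised 3 of them and lowered 0: Hspb1 in astrocytes and Hspa8 and Hspa5 in ependymal cells. Hspb1 passed the filter in astrocytes through the FGF1 mice alone, so that pair could not have been called lower. Over all genes tested in the same types, 0.653% were called higher. Of the 64 fold changes, 57 lay above 0 and 7 below, with a median of 0.61 on the log2 scale. The median fold of all genes tested in a type lay between −0.053 (ependymal cells) and 0.027 (tanycytes). The types share mice, so the 64 folds are not independent. In 18 of the 162 pairs every FGF1 mouse was above every vehicle mouse, against 7.97% of all genes tested. Those 18 include pairs that did not pass the filter. In 1 pair, Hsph1 in VLMC with 3 UMIs against 7, every FGF1 mouse was below every vehicle mouse.

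Hspb1 (chromosome 5, bases 135887919 through 135889563, plus strand) encodes a small heat shock protein that binds actin and intermediate filaments and keeps unfolding proteins soluble. In astrocytes it stood at 455, 274 and 180 CPM in FGF1 mice 1, 2 and 3. The vehicle mice had 0, 3.87 and 0 CPM. The groups did not overlap, and the vehicle values came from 2 UMIs in all.

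Mean Hspb1 in astrocytes was 303 CPM ± 140 (SD, n = 3) with FGF1 and 1.29 ± 2.23 with vehicle (n = 3), a log2 fold change of 6.94 ± 0.79 (SE, edgeR quasi-likelihood test, FDR = 0.00285). In this type 1.39% of genes were called higher. Hspb1 entered the test there through the FGF1 mice, so this share stands beside it as a description only. With 548 and 2 UMIs in the groups, the ratio of counts was 164 (95% counting interval 45.3 to 1361, which covers counting error only). Without vehicle mouse 1 the fold change was 6.64 with an FDR of 0.0563. Leaving out a mouse gave 6.39 (without FGF1 mouse 1) to 9.78 (without vehicle mouse 2, which held both vehicle UMIs), and barcodes within the stated mitochondrial and ribosomal limit gave 5.60, so the size of the fold is uncertain. FGF1 mouse 1 had the highest Hspb1 of its group in 11 of the 14 types with all 3 FGF1 mice.

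Hspb1 was also above vehicle in the ventricular cells of FGF1 mice. In tanycytes, the ventricle-lining glia of the mediobasal hypothalamus, it stood at 136, 92.2 and 83.7 CPM with FGF1 and 9.04, 0 and 0 CPM with vehicle. In ependymal cells, the ciliated lining of the ventricle, it stood at 268, 166 and 34.2 CPM with FGF1 and at 0 in the 3 vehicle mice. In neither type did the groups overlap.

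These 2 types had few nuclei per mouse (20 to 119 tanycytes and 13 to 23 ependymal nuclei), and Hspb1 did not pass the filter on low counts in them. The ratio of counts in tanycytes was 32.0 (52 UMIs against 1, counting interval 5.50 to 1289). In ependymal cells 17 UMIs against 0 put Hspb1 at least 5.25-fold higher, against a floor of 3 UMIs over the vehicle group. Without the filter on low counts the log2 fold changes were 4.59 ± 0.904 in tanycytes (edgeR, FDR = 7.10e-05) and 5.47 ± 1.36 in ependymal cells (FDR = 0.0044). The same unfiltered fit also called Hspb1 in the neurons labelled n29.Nr5a1/Adcyap1, at 5.42 ± 1.49 (FDR = 0.0337), and not in oligodendrocytes (5.30, FDR = 0.0667). Tested within the same mice, the FGF1 effect on Hspb1 did not pass as different between astrocytes and tanycytes (−2.30 ± 1.98, edgeR FDR = 0.80) or between astrocytes and ependymal cells (−0.35 ± 0.90, FDR = 0.99).

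**Figure D1:**
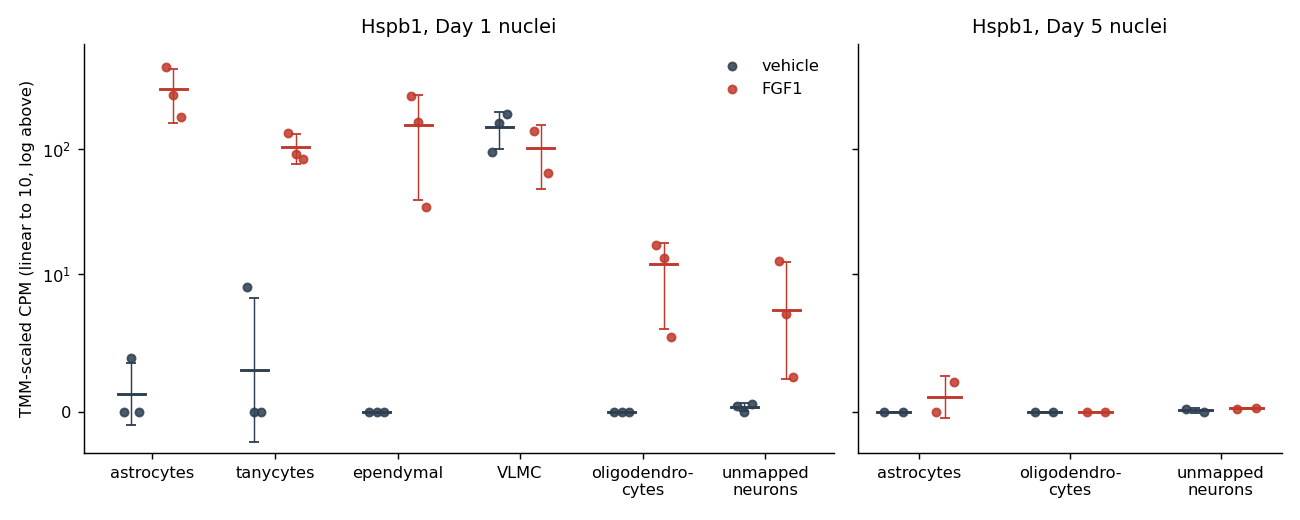
Hspb1 in nuclei, in TMM-scaled CPM on an axis that is linear to 10 and logarithmic above, for 6 types on Day 1 (left) and 3 types on Day 5 (right). Points are mice, lines are means and bars are SDs (VLMC with 2 FGF1 mice). On Day 1 the FGF1 mice lie above the vehicle mice in every type drawn except VLMC, and on Day 5 no mouse exceeds 2.14 CPM in the 3 types drawn.

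At lower levels the same order was seen in oligodendrocytes, where FGF1 mice had 16.97, 13.3 and 5.45 CPM and vehicle mice 0. There 14 UMIs stood against 0, at least 4.68-fold higher. Among the neurons labelled unmap, which the authors could not map to a published type, FGF1 mice had 12.6, 7.07 and 2.54 CPM and vehicle mice 0.417, 0 and 0.567. In all, the groups did not overlap in 6 of 18 types, the sixth being GABA15 neurons with 5 UMIs against 0. Hspb1 passed the filter on low counts in only 1 of the 18. The share of 7.97% over all genes covers only pairs that passed, so these 6 are a description without a matching share.

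The vascular and leptomeningeal cells (VLMC) differed from these types. There Hspb1 was present without FGF1, at 95.4, 163 and 193 CPM in the vehicle mice, and stood at 140 and 64.0 CPM in FGF1 mice 1 and 3. The groups overlapped. Nuclei with this label also carried endothelial markers, at a summed 579 to 1265 CPM with vehicle and 489 to 576 CPM with FGF1. Their VLMC markers summed to 4668 to 9005 CPM with FGF1 and 1062 to 2122 CPM with vehicle.

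The share of nuclei with an Hspb1 UMI in astrocytes was 36.6%, 32.7% and 38.5% in the FGF1 mice, and 0%, 1.35% and 0% in the vehicle mice. The 0 of 57 and 0 of 45 nuclei allow shares of up to 5.26% and 6.67% at 3 counts, or 6.27% and 7.87% by the exact interval. After each nucleus was thinned to 1500 UMIs, which left out 26, 0 and 5 of the FGF1 nuclei, the FGF1 shares were 26.8% (exact 95% interval 22.3 to 31.7), 20.4% (13.4 to 29.0) and 23.4% (12.3 to 38.0).

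In the unmapped neurons 2.76%, 2.27% and 0.737% of FGF1 nuclei had a UMI, at median depths of 1889, 2683 and 2424 UMIs. The astrocytes of the same mice had median depths of 2515.5, 2875 and 2386 UMIs. Thinned alike, the neuronal shares were 1.61%, 1.26% and 0.192%. In tanycytes the thinned shares were 10.0%, 14.0% and 8.70%, and in ependymal cells 16.7%, 21.7% and 6.25%, the latter overlapping those of astrocytes and of tanycytes. Differences in share between types were not tested. Whether the low shares in neurons and oligodendrocytes came from free RNA was not tested.

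Hspa8 (chromosome 9, 40800984 to 40810087, plus strand), the Hsp70 that folds newly made proteins and uncoats clathrin vesicles, rose in ependymal cells. It stood at 2026, 1780 and 1572 CPM in the FGF1 mice and 208, 466.3 and 573 CPM in the vehicle mice. The groups did not overlap.

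The means for Hspa8 were 1793 CPM ± 227 (SD, n = 3) and 415 ± 188 (n = 3), a log2 fold change of 2.10 ± 0.34 (edgeR, FDR = 0.000468), in a type where 10.2% of genes were called higher. This call was kept in the 12 alternatives in which the type could be fitted. Hspa5 (chromosome 2, 34771970 to 34777547, plus strand), the chaperone that opens the unfolded protein response by leaving its sensors, stood at 715, 475 and 444 CPM in ependymal cells of FGF1 mice and 148, 311 and 258 CPM in those of vehicle mice. Its groups did not overlap either, and its log2 fold change was 1.18 ± 0.39 (edgeR, FDR = 0.0417). It lost this call in 8 of 12 alternatives, with FDRs up to 0.158.

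The ependymal label itself differed between the groups. The summed ependymal markers stood at 1609 to 2734 CPM with FGF1 and 5154 to 6715 CPM with vehicle, with 4 of 5 called lower. Astrocyte markers there stood at 684 to 1996 against 2953 to 3676 CPM, with 2 of the 4 tested called lower. Neuronal markers stood at 5298 to 11863 against 4445 to 5584 CPM. The part of these differences in the Hspa8 and Hspa5 values was not tested.

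In tanycytes Hspa5 stood at 638, 385 and 553 CPM with FGF1 and 99.4, 318 and 71.8 CPM with vehicle, which did not overlap. Hspa8 stood at 2640, 1039 and 787 CPM with FGF1 and 253, 805 and 179 CPM with vehicle, so that vehicle mouse 2 exceeded FGF1 mouse 3. Neither passed the test, at log2 1.62 ± 0.49 (edgeR, FDR = 0.0555) for Hspa5 and 1.84 ± 0.60 (FDR = 0.0752) for Hspa8. DESeq2 called both, at FDRs of 0.0401 and 0.0288. Tanycyte markers summed to 888 to 1423 CPM with FGF1 and 1328 to 2060 with vehicle, and ependymal markers to 83.7 to 144 against 407 to 693 CPM.

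In astrocytes Hspa8 stood at 1773, 689 and 494 CPM with FGF1 and 346, 1244 and 229 CPM with vehicle. The groups overlapped, and the fold change was 0.70 ± 0.77 on the log2 scale (edgeR, FDR = 0.96). For Hspa5 it was 0.75 ± 0.58 (FDR = 0.87). The difference in the FGF1 effect between astrocytes and tanycytes or ependymal cells passed for 0 of the members tested, against 0.303% and 0.0% of all genes.

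**Figure D2:**
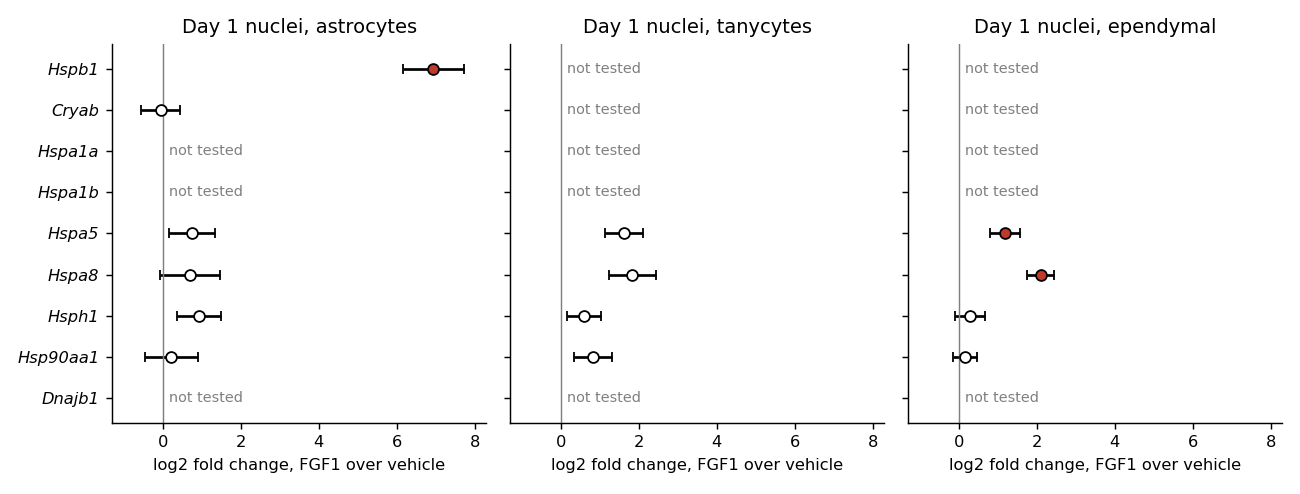
Log2 fold changes of the 9 genes, FGF1 over vehicle, in Day 1 astrocyte, tanycyte and ependymal nuclei, with bars of 1 SE. Filled points were called at an FDR below 0.05 (Hspb1 in astrocytes at 6.94, Hspa5 at 1.18 and Hspa8 at 2.10 in ependymal cells), open points were not, and genes marked as not tested did not pass the filter on low counts.

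For Hspa8, Hspa5 and Hsp90aa1 the same library was the highest of its group in most types. In the 14 types with all 3 FGF1 mice, FGF1 mouse 1 had the highest value of its group in 14 types for Hspa8, 14 for Hspa5 and 13 for Hsp90aa1. Vehicle mouse 2 had the highest of its group in 13, 14 and 14 types. These are also the 2 libraries with the highest ribosomal shares. Whether RNA quality or handling set this order was not tested.

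Divided by the level in the unmapped neurons of the same library, Hspa8 in tanycytes was 3.33, 3.28 and 3.71 with FGF1 and 1.81, 1.26 and 1.13 with vehicle. On this scale the groups did not overlap. The share of all genes that separate on this scale was not computed, so these ratios are a description and not a test. The 2 types of a ratio have different scaling totals, so the ratios compare groups and not types. Hspa5 in tanycytes was 3.36, 3.39 and 6.55 against 1.42, 1.63 and 0.98, and Hspa5 in ependymal cells was 3.76, 4.18 and 5.27 against 2.12, 1.59 and 3.52. The ratios for Hspa8 in ependymal cells, 2.56, 5.62 and 7.40 against 1.49, 0.73 and 3.62, overlapped. So did those for Hspa8 in astrocytes, 2.24, 2.18 and 2.33 against 2.48, 1.95 and 1.44. Those for Hspa5 in astrocytes, 1.85, 2.55 and 2.38 against 1.67, 1.58 and 0.892, did not overlap. The Hsp90aa1 ratios overlapped in tanycytes (2.31, 2.24 and 1.70 against 1.71, 1.66 and 1.61), in ependymal cells and in astrocytes.

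**Figure D3:**
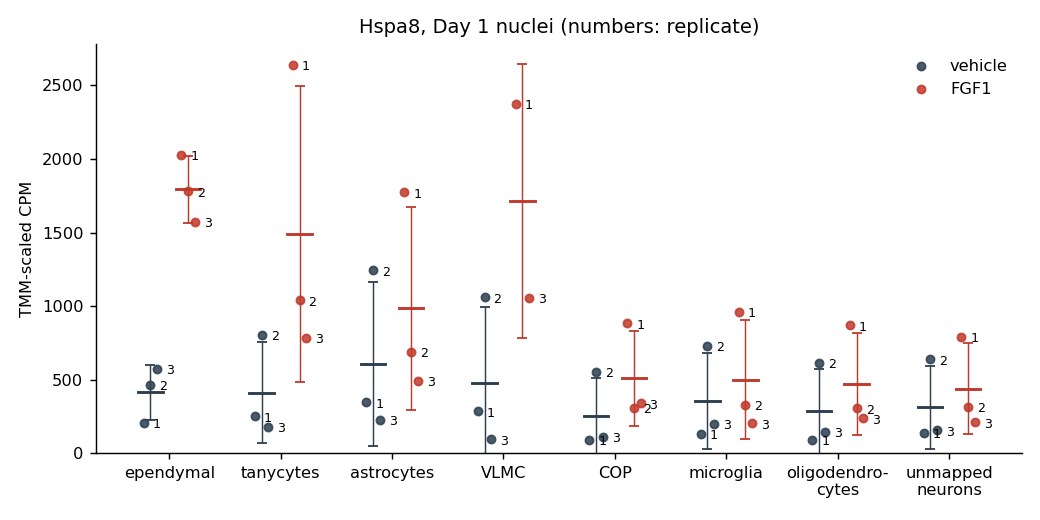
Hspa8 in 8 types of Day 1 nuclei, in TMM-scaled CPM, with each mouse numbered and with means and SDs (VLMC with FGF1 mice 1 and 3). FGF1 mouse 1 is the highest FGF1 mouse in each type drawn, vehicle mouse 2 is the highest vehicle mouse in each type but ependymal cells, and the groups separate in ependymal cells.

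The other members were not called on Day 1 in the filtered fit. Hsp90aa1 (chromosome 12, 110690605 to 110702728, minus strand), which matures kinases and steroid receptors, passed the filter in 17 types with a median log2 fold change of 0.42 and a range of −0.11 to 0.82. Hsph1 (chromosome 5, 149614287 to 149636376, minus strand) passed in 7 types, with folds above 0 in each and a median of 0.68. In oligodendrocytes its groups did not overlap, at 41.8 CPM ± 5.87 (SD, n = 3) against 18.0 ± 13.7 (n = 3), with a log2 fold change of 1.12 ± 0.52 (edgeR, FDR = 0.87).

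Cryab (chromosome 9, 50751325 to 50756636, plus strand), a small heat shock protein of the lens, of astrocytes and of oligodendrocytes, had a log2 fold change of −0.06 ± 0.51 in astrocytes (edgeR, FDR = 0.99). In tanycytes, where it did not pass the filter, it stood at 159, 151 and 83.7 CPM with FGF1 and 54.2, 28.1 and 0 CPM with vehicle, with no overlap. Without the filter it was called there (2.11 ± 0.59, edgeR FDR = 0.0171), and also when FGF1 mouse 3 was left out. Dnajb1 (chromosome 8, 83608193 to 83612653, plus strand) passed only in the unmapped neurons, at 17.02, 5.23 and 10.1 CPM against 3.75, 4.62 and 3.405 CPM. Its groups did not overlap, and its log2 fold change of 1.45 ± 0.48 was not called (edgeR, FDR = 0.64).

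Hspa1a (chromosome 17, 34969190 to 34972156, minus strand) and Hspa1b (chromosome 17, 34956436 to 34959238, minus strand) are nearly intronless and encode near-identical inducible Hsp70 proteins. Neither passed the filter in any nuclear type. On Day 1 their vehicle means reached at most 24.0 CPM (Hspa1a, VLMC, 2 UMIs) and 3.12 CPM (Hspa1b, tanycytes, 1 UMI). In astrocytes of FGF1 mice Hspa1a had 5 UMIs and Hspa1b 0, beside the 548 UMIs of Hspb1.

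Other chaperone genes moved in the same types. A list of 39 chaperone and heat shock factor genes (38 in the table) held mainly cytosolic proteins, with the mitochondrial Hspd1 and Hspe1 and the ER protein Serpinh1 among them. FGF1 raised 3 of 17 tested in tanycytes, 2 of 6 in ependymal cells and 1 of 31 in astrocytes, and lowered 0. These counts cover only the genes that passed the filter, some through the FGF1 mice, such as Bag3 in ependymal cells (315 against 19.1 CPM) and Serpinh1 in astrocytes (104 against 10.4 CPM), and give no evidence about the list as a whole. Of all genes tested, tanycytes had 5.38% called higher, ependymal cells 10.2% and astrocytes 1.39%. The tanycyte genes were Hspd1, the mitochondrial chaperonin (log2 2.36 ± 0.47, edgeR FDR = 0.00756), and the chaperonin subunits Cct3 (1.79, FDR = 0.0428) and Cct4 (1.64, FDR = 0.0452).

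In ependymal cells the called genes of this list were Hsp90ab1, the constitutive cytosolic Hsp90 (1.58 ± 0.29, edgeR FDR = 0.000985), and Bag3, a partner of Hsp70 in selective autophagy (3.76 ± 0.86, FDR = 0.0052). In astrocytes the called gene was Serpinh1, the collagen chaperone of the ER (3.35 ± 0.66, FDR = 0.0297). Of 24 genes of the ER chaperones and the unfolded protein response, 1 of 8 rose in tanycytes, Calr, a lectin chaperone of the ER (1.77 ± 0.42, FDR = 0.0205). In that list, which does not hold Serpinh1, 0 of 15 in astrocytes and 0 of 2 in ependymal cells were called.

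Immediate early genes, which nuclei induce within minutes of a stimulus, were given beside these lists. Of the 15 listed, 5 passed the filter in astrocytes and 4 of these were called higher, among them Jun (5.01 ± 0.81, edgeR FDR = 0.0122), Klf6 (2.81 ± 0.47, FDR = 0.0132) and Egr1 (4.46 ± 0.74, FDR = 0.0135). In tanycytes 2 of the 15 passed, and both were called higher, Jun (4.54 ± 0.82, FDR = 0.00449) and Egr1 (3.56 ± 0.67, FDR = 0.00555). Their vehicle means were low, at 4.04 CPM for Jun and 4.76 CPM for Egr1 in astrocytes and 9.10 and 15.02 CPM in tanycytes, so that they passed the filter through the FGF1 mice, and the counts are a description of these genes and no evidence about the list. No immediate early gene passed the filter in ependymal cells. In the other 15 types no gene tested from the 3 lists was called, and the unmapped neurons, with 8, were the only one of them in which immediate early genes passed the filter.

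In the 11 nuclear types compared on Day 5, Hspb1 was near 0 in both groups. Tanycytes, ependymal cells and VLMC had too few nuclei for a comparison on that day. A UMI was found in 0 of 34 and 1 of 107 FGF1 tanycytes and in 1 of 9 and 0 of 14 vehicle tanycytes, and in no ependymal nucleus of 31, 36, 3 and 8. Astrocytes had 0 and 2.14 CPM in the FGF1 mice and 0 and 0 CPM in the vehicle mice. The unmapped neurons had 0.238 and 0.281 against 0.207 and 0 CPM. No more than 2 UMIs per group were found in the other types. The difference between the days could be fitted but was not called: in astrocytes the FGF1 effect was 4.28 lower on Day 5 on the log2 scale with an FDR of 0.99 (edgeR interaction), from 2 UMIs against 0 on Day 5, and its SE exceeded the difference itself.

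Of 99 pairs of a gene and a type on Day 5, 41 passed the filter and 0 were called by edgeR or by DESeq2, against 0.288% of all genes. At an unadjusted p below 0.05 there were 4, all with folds above 0, against 8.6% of all genes. The largest was Hsph1 in oligodendrocytes, at 26.8 and 36.4 CPM with FGF1 and 12.6 and 14.3 CPM with vehicle (log2 1.23 ± 0.49, FDR = 0.59). Hspa8 in astrocytes stood at 576 and 835 CPM with FGF1 and 530 and 1123 CPM with vehicle (−0.25 ± 0.41, FDR = 0.83). No member had a day by FGF1 interaction past the threshold, with 0.0% to 0.102% of all genes called per type. With 2 mice per group the groups of a gene separate often: 19.9% of all genes tested had both FGF1 mice above both vehicle mice.

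Whole cells gave the levels of the 9 genes without FGF1 in 14 clusters with all 6 vehicle mice. The scaling total held 313 genes in cluster 15, 2159 in cluster 10 and 9441 in cluster 0. Levels in clusters with few genes in the total stand higher for that reason. The part of this in the orders below was not tested. Hspb1 was highest in the vascular clusters. It stood at 286 CPM ± 77.1 (SD, n = 6) in endothelial-like cluster 3 and 214 ± 134 in pericyte-like cluster 15. Cluster 3 carried pericyte markers too, at a summed 2536 to 3984 CPM with vehicle beside 8165 to 11898 CPM of endothelial markers, and cluster 15 carried 11472 to 23281 CPM of pericyte markers. The next, ependymal-like cluster 6, had 23.2 ± 23.9 CPM, and the other clusters had 0 to 16.7 CPM. The 6 mice kept the order of clusters 15 and 6, and did not keep that of 3 and 15.

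Cryab stood highest in the later oligodendrocyte lineage, at 2663 ± 695 CPM in oligodendrocyte-like cluster 12, 2648 ± 702 in 11, 1618 ± 548 in 2 and 1074 ± 362 in cluster 9, which had markers of committed precursors (COP). Cluster 5, with markers of earlier precursors, had 502 ± 106 CPM, below pericyte-like cluster 15 at 553 ± 400 CPM. It was lowest in tanycyte-like cluster 7, at 65.8 ± 12.8 CPM. Hspa5 was highest in microglia-like cluster 8, at 755 ± 91.5 CPM, and lowest in oligodendrocyte-like cluster 2, at 130 ± 19.9 CPM. Hsph1 stood apart in ependymal-like cluster 6, at 382 ± 29.6 CPM, with 87.7 ± 23.8 CPM in the next, tanycyte-like cluster 0.

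Hspa1a stood at 1081 ± 884 CPM in pericyte-like cluster 15, 832 ± 320 in endothelial-like cluster 3 and 527 ± 215 in ependymal-like cluster 6, down to 13.8 CPM in astrocyte-like cluster 1. Hspa1b was highest in the same clusters, at 200 ± 76.1 CPM (3), 184 ± 80.9 (6) and 170 ± 121 (15), with 2.62 CPM in cluster 1. Dnajb1 was highest in microglia-like cluster 8, at 185 ± 29.0 CPM, then in cluster 6 at 143 ± 81.4 and cluster 3 at 119 ± 44.5. In Day 1 nuclei from frozen tissue, Hspa1a was at 0 CPM in ependymal cells and tanycytes of each vehicle mouse, from few nuclei. The part of the warm digestion in the whole-cell levels of Hspa1a, Hspa1b, Dnajb1 and the other genes was not tested.

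On this scale Hspa8 varied least, from 1168 ± 220 CPM in tanycyte-like cluster 10 to 478 ± 71.4 in astrocyte-like cluster 4. Hsp90aa1 ran from 1947 ± 298 CPM in ependymal-like cluster 6 and 1798 ± 170 in oligodendrocyte-like cluster 12 to 313 ± 20.3 in astrocyte-like cluster 1. Over the 9 genes, 117 pairs of neighbours in these orders were compared within mice, and 0 passed after adjustment (exact sign-flip permutation test, smallest adjusted p = 0.281, and 0.03125 is the smallest p that 6 mice can give). A pair could pass only if most of the 117 reached that smallest p, so the test cannot show that neighbours are alike. In 13 pairs all 6 mice had the same order.

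**Figure D4:**
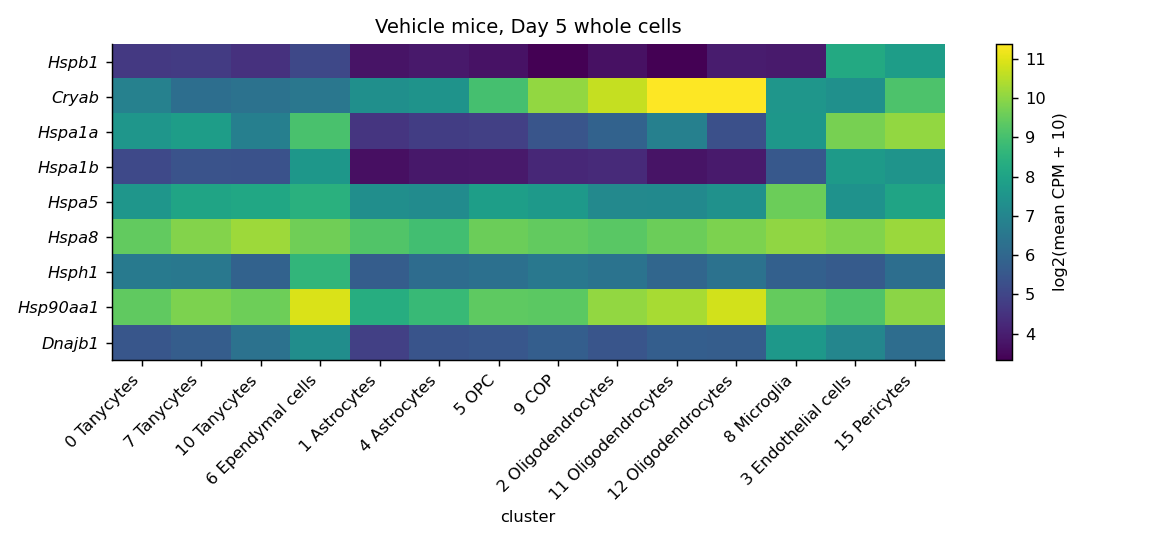
Mean level of the 9 genes in the vehicle mice (n = 6) in 14 whole-cell clusters on Day 5, as log2(mean CPM + 10). Scaling totals differ between clusters. Hspb1 is bright in clusters 3 (286 CPM) and 15 (214 CPM), Cryab in the oligodendrocyte-like clusters 11 and 12, and Hsph1 and Hsp90aa1 in ependymal-like cluster 6.

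Over the 14 clusters the genes whose vehicle levels were most like those of Hspb1 were Cgnl1 (Pearson r = 0.978 of log2(CPM + 10), as a description over clusters that share libraries and differ in scaling total), Bcam and Zak. For Cryab they were Ado (0.981), Enpp2 and Mapt, and for Hsph1 they were Tctex1d4 (0.915), Gm867 and 1700001C02Rik. Hspa1b was nearest to Hspa1a (0.936), and Hspa1b itself to Cyb5r3 (0.962). For Hspa5 the nearest was Mpeg1 (0.911), for Hsp90aa1 Glod4 (0.903), with the Hsp90 activator Ahsa1 among its 3 nearest, and for Dnajb1 Atf3 (0.927).

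The last question was which of these genes differed with FGF1 in whole cells on Day 5. Of 144 pairs of a gene and a cluster, 96 passed the filter. FGF1 raised 7 and lowered 0, against 0.854% of all genes called higher. In 3 of the 144 the groups did not overlap, with FGF1 higher, against 0.85% of all genes tested. The 144 include pairs that did not pass the filter, and the share does not. The 7 were Cryab in clusters 0, 7 and 11, Hspa8 in clusters 0 and 5, and Hsp90aa1 in clusters 5 and 11.

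Cryab had the largest of these changes, in tanycytes. In tanycyte-like cluster 0 it ranged over 122 to 218 CPM in FGF1 mice (median 182) and 77.1 to 134 CPM in vehicle mice (median 104). The groups overlapped slightly, and FGF1 was higher in 6 of 6 batches. The means were 174 CPM ± 33.6 (SD, n = 6) and 107 ± 19.7 (n = 6), with a log2 fold change of 0.72 ± 0.13 (edgeR, FDR = 0.0013) and 2.64% of genes called higher in the cluster.

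In tanycyte-like cluster 7 Cryab ranged over 124 to 153 CPM with FGF1 (median 136, n = 5) and 49.7 to 80.5 CPM with vehicle (median 68.0, n = 6). The groups did not overlap, and FGF1 was higher in 5 of 5 batches. The log2 fold change was 0.98 ± 0.18 (edgeR, FDR = 0.00228), where 0.968% of genes were called higher. Both Cryab calls in tanycyte-like clusters were kept in all 18 alternatives run for them. In tanycyte-like cluster 10 Cryab stood at 87.3 CPM ± 25.9 (SD, n = 6) and 71.9 ± 27.5 (n = 6), a fold change of 0.25 ± 0.25 that did not pass (FDR = 0.74).

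Cells of clusters 0 and 7 also differed in markers. The 7 astrocyte markers summed to 2055 to 3093 CPM with FGF1 and 3825 to 4825 CPM with vehicle in cluster 0, with 4 called lower. In cluster 7 they summed to 1684 to 2139 against 2325 to 3399 CPM, with 2 lower. In vehicle mice Cryab stood at 153 ± 30.2 CPM in astrocyte-like cluster 1 and 107 ± 19.7 CPM in cluster 0, on scaling totals of 7679 and 9441 genes. The part of the marker differences in the Cryab values was not tested. Cluster 7 held 2728 FGF1 and 590 vehicle cells.

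In oligodendrocyte-like cluster 11 Cryab ranged over 2819 to 4462 CPM with FGF1 (median 3946) and 1951 to 3734 CPM with vehicle (median 2469). The groups overlapped, and FGF1 was higher in 5 of 6 batches, with a log2 fold change of 0.55 ± 0.16 (edgeR, FDR = 0.0249, against 2.67% of genes called higher). This call was lost in 5 of 18 alternatives. The cluster held 1212 FGF1 and 166 vehicle cells. The other oligodendrocyte-like clusters gave 0.48 ± 0.17 (cluster 2, FDR = 0.21) and 0.71 ± 0.19 (cluster 12, FDR = 0.0756), which did not pass. With clusters of 1 name merged, Cryab rose in tanycytes (0.68, edgeR FDR = 0.00258), astrocytes (0.46, FDR = 0.0119) and oligodendrocytes (0.71, FDR = 0.0482). Different clusters held most of the astrocytes of each group, with 1531 FGF1 and 7940 vehicle cells in cluster 1 and 3412 and 697 in cluster 4, and Cryab was called in neither (0.44 ± 0.16, FDR = 0.28, and 0.42 ± 0.17, FDR = 0.36). The oligodendrocytes were also spread differently, with 1799 FGF1 and 5610 vehicle cells in cluster 2, 1212 and 166 in cluster 11 and 223 and 952 in cluster 12. Vehicle Cryab was 1618 CPM in cluster 2 and 2648 CPM in cluster 11, on scaling totals of 7187 and 1613 genes. The part of these shifts between clusters in the merged values was not tested.

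Hspa8 and Hsp90aa1 rose together in cluster 5, which had markers of oligodendrocyte precursors (OPC). There Hspa8 ranged over 900 to 1205 CPM with FGF1 (median 1045) and 606 to 930 CPM with vehicle (median 758). Hsp90aa1 ranged over 801 to 1104 CPM with FGF1 (median 874) and 475 to 761 CPM with vehicle (median 669). For Hsp90aa1 the groups did not overlap, and each gene was higher with FGF1 in 6 of 6 batches.

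The log2 fold changes in cluster 5 were 0.46 ± 0.11 for Hspa8 (edgeR, FDR = 0.0148) and 0.45 ± 0.11 for Hsp90aa1 (FDR = 0.0213), where 1.2% of genes were called higher. The Hsp90aa1 call there was lost in 5 of 18 alternatives and the Hspa8 call in 1. Hsp90aa1 in oligodendrocyte-like cluster 11 ranged over 1363 to 2438 CPM with FGF1 (median 1741) and 894 to 1563 CPM with vehicle (median 1280), and rose by 0.51 ± 0.16 (FDR = 0.0430). Hspa8 in tanycyte-like cluster 0 ranged over 770 to 1014 CPM (median 886) against 538 to 771 CPM (median 724), and rose by 0.36 ± 0.11 (FDR = 0.0396). The calls of Hsp90aa1 in cluster 11 and Hspa8 in cluster 0 were each lost in 11 of 18 alternatives. With batch as a block their FDRs were 0.0648 and 0.0575.

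**Figure D5:**
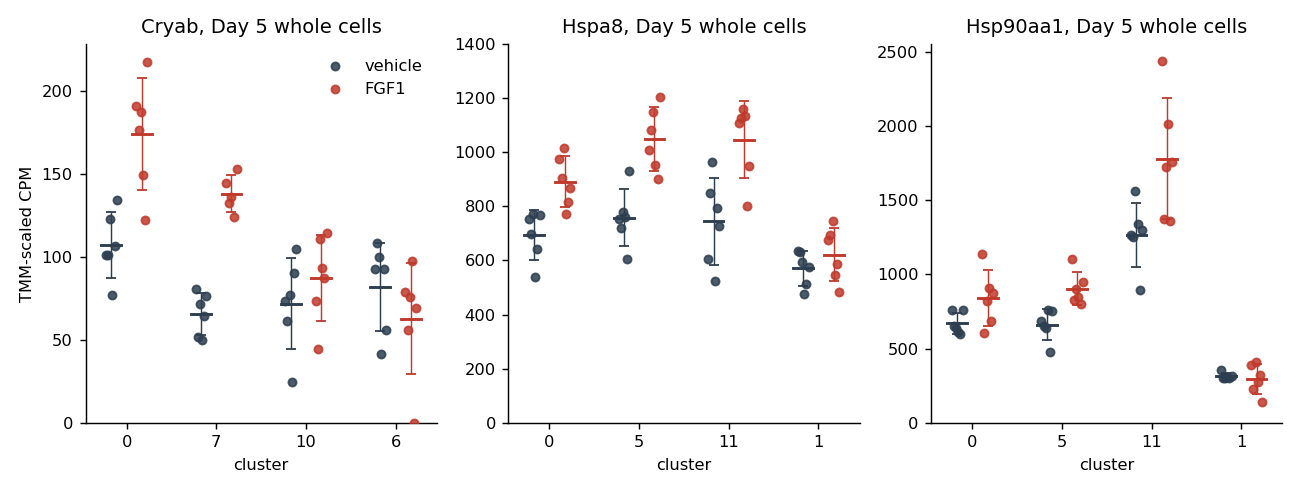
Cryab, Hspa8 and Hsp90aa1 in 4 whole-cell clusters each on Day 5, in TMM-scaled CPM, with a point per mouse, means and SDs. Cryab separates by treatment in cluster 7, overlaps slightly in cluster 0 and overlaps in clusters 10 and 6, and Hsp90aa1 is higher with FGF1 in clusters 5 and 11 and not in cluster 1.

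Across the clusters tested, the Hspa8 fold lay above 0 in 16 of 16, with a median of 0.24 on the log2 scale. It lay above 0 in 13 of 14 for Cryab (median 0.44) and 14 of 16 for Hsp90aa1 (median 0.31). Over all 9 genes 74 of 96 folds lay above 0, with Hspa1a at 4 of 11 (median −0.15) and Hspa1b at 1 of 3 (median −0.43). How many of all genes had folds so much to 1 side was not computed. With clusters of 1 name merged, the Hspa8 fold was below 0 in astrocytes (−0.16 ± 0.11, edgeR FDR = 0.36) and above 0 under the other names. The median fold of all genes tested in a cluster lay between −0.026 (cluster 15) and 0.025 (cluster 12). The clusters share mice and are not independent. Hspa5 was not called. Its lowest FDR, 0.0929, was in endothelial-like cluster 3, at 229 CPM ± 44.6 (SD, n = 6) with FGF1 and 164 ± 29.3 (n = 6) with vehicle, higher in 6 of 6 batches.

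Hspb1 passed the filter in 2 clusters and differed in neither. It stood at 18.2 CPM ± 7.13 (SD, n = 6) with FGF1 and 15.1 ± 5.44 (n = 6) with vehicle in tanycyte-like cluster 0 (log2 0.16 ± 0.27, edgeR FDR = 0.80, 95% interval −0.36 to 0.68). In endothelial-like cluster 3 it stood at 260 ± 70.7 and 286 ± 77.1 CPM (−0.16 ± 0.20, FDR = 0.79, interval −0.54 to 0.22).

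Hspa1a and Hspa1b had values below vehicle in ependymal-like cluster 6 that did not pass. Hspa1a stood there at 177 CPM ± 152 (SD, n = 6) with FGF1 and 527 ± 215 (n = 6) with vehicle (−1.34 ± 0.47, edgeR FDR = 0.24). Hspa1b stood at 63.8 ± 51.8 and 184 ± 80.9 CPM (−1.20 ± 0.45, FDR = 0.27). Hsph1 and Dnajb1 were not called in any cluster, with median folds of 0.08 and 0.11.

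The effect of FGF1 was compared within mice between clusters 0 and 1, 0 and 6, 1 and 6, 1 and 2, and 1 and 4. Over these pairs and all members tested, 2 differences passed. Hsp90aa1 changed by 0.45 ± 0.14 less in astrocyte-like cluster 1 than in tanycyte-like cluster 0 (edgeR interaction, FDR = 0.0461, with 3.01% of genes called), a call that was lost with RLE size factors. In cluster 1 it stood at 295 CPM ± 102 (SD, n = 6) with FGF1 and 313 ± 20.3 (n = 6) with vehicle, and in cluster 0 at 840 ± 188 and 671 ± 71.4 CPM. Cryab changed by 0.81 ± 0.19 less in ependymal-like cluster 6 than in cluster 0 (FDR = 0.0363, with 0.198% of genes called). In cluster 6 it stood at 62.8 ± 33.6 and 81.9 ± 26.7 CPM, with FGF1 mouse 6, which had 19 cells there, at 0. Between astrocyte-like cluster 1 and cluster 0 the Cryab effect did not pass as different (−0.23 ± 0.15, edgeR interaction, FDR = 0.57).

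Other chaperones were also called in tanycyte-like cluster 0. The lists were chosen with earlier results of these data known, so the counts below are descriptions and no evidence about a list. Of the mainly cytosolic chaperone list 6 of 37 tested rose and 0 fell, where 2.64% of all genes were called higher. The 3 with the lowest FDR were the small heat shock proteins Hspb8 (1.18 ± 0.26, edgeR FDR = 0.00812) and Hspb6 (1.17 ± 0.27, FDR = 0.0132), and Hsp90ab1 (0.44 ± 0.10, FDR = 0.0098). Of the ER list 1 of 21 fell, Herpud1, which serves ER-associated degradation (−0.49 ± 0.14, FDR = 0.0356), where 249 of all 9441 genes were called lower. In astrocyte-like cluster 1, 0 of 36 genes of the chaperone list were called, against 0.404% of all genes there. In OPC-like cluster 5, where Hspa8 and Hsp90aa1 rose, 0 of 27 genes of the chaperone list were called. There 2 of 17 ER genes and 2 of 11 immediate early genes rose, against 1.2% of all genes called higher. The part of the immediate early genes, or of the warm digestion that all whole cells went through, in the Hspa8 and Hsp90aa1 values was not tested. No immediate early gene was called in the other 15 clusters. The median fold of these genes was 0.25 in cluster 0 (10 of 15 above 0) and −0.60 in cluster 1 (1 of 13). The part of this in the Hsp90aa1 difference between clusters 0 and 1 was not tested.

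Over the 12 mice, Cryab and Hspa8 levels in tanycyte-like cluster 0 varied together (Pearson r = 0.891, permutation p = 7e-05, adjusted p = 0.00504 over the 72 pairs of genes in clusters 0 and 1). Spearman's rho was 0.867 (permutation p = 0.00049), and r without the 2 mice farthest from the median was 0.897. With the group means subtracted r was 0.735 (permutation p = 0.00647, adjusted p = 0.117). The differences within the 6 batches gave r = 0.862 (exact permutation p = 0.0111, adjusted p = 0.467). No other pair passed, and this one does not pass once treatment or batch is taken out.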

How the data were processed

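UMI counts were deposited by the authors per gene and barcode, without normalization. Per the study's methods, Cell Ranger 1.2 aligned reads to GRCm38 (with introns for nuclei), barcodes were filtered on UMIs, genes and mitochondrial and ribosomal percent (a percent deposited per cell), and Scrublet doublets were removed from whole cells only. A mitochondrial or ribosomal limit of 5% for nuclei and 20% for cells would leave 24060 nuclei and 50508 cells, and was run as an alternative. The authors' SCTransform values were not used. Cells were linked to the deposited annotation by row order, with UMI totals equal for each barcode.

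Counts were summed per mouse and type (at least 10 cells per mouse and 2 mice per group), filtered with filterByExpr, scaled by TMM and tested with edgeR 4.0.16 (R 4.3.3) quasi-likelihood, with Benjamini-Hochberg adjustment over all genes tested in a type. The SE is the fold change divided by the square root of F. Interactions of treatment with type had mouse as a block, and interactions with day used all 4 nuclear groups. Correlations used 100000 permutations (SciPy 1.17.1). DESeq2 1.42.0 was an alternative. The edgeR test was also run on simulated counts with known fold changes.

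The 9 genes, the chaperone and immediate early lists and the alternatives were chosen with earlier results of these data known. Cluster names came from marker lists, by a rule set after the cluster profiles were seen. Named genes outside the 9 are at most the 3 with the smallest FDR per list in Day 1 astrocytes, tanycytes and ependymal cells and whole-cell clusters 0 and 1, and the 3 most like each member among genes with a mean of at least 20 CPM (those most like Hspa8 are not reported here). Batch is the number the authors give, whose meaning is not stated in the labels. Counting intervals cover counting error only.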

Additional observations from a re-analysis of the deposited data

Results flagged for a closer look

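The FGF1 effect on Hsp90aa1 differed between whole-cell clusters 0 and 1, by −0.45 on the log2 scale (cluster 1 minus cluster 0). The FGF1 effect on Cryab differed between clusters 0 and 6, by −0.81 (cluster 6 minus cluster 0). Nuclei that the authors labelled filtered_by_sil, which entered no comparison, held 22, 4 and 1 Hspb1 UMIs in Day 1 FGF1 mice 1, 2 and 3 and 0 in the 3 vehicle mice.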

How the results depend on the processing

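None of the 10 called fold changes changed its sign under the alternatives run. With barcodes within the stated limit some neighbouring clusters changed places in the order of levels, Hspa8 being highest in cluster 15 instead of 10 and Cryab in 11 instead of 12. Of the 9 genes, 3 calls on Day 1 became 8 without the filter on low counts and 1 with at least 20 cells per mouse, where ependymal cells had too few nuclei to be fitted and their 2 calls were not tested, and ranged from 1 (without vehicle mouse 1) to 9 (without FGF1 mouse 3) when a mouse was left out, with 5 without vehicle mouse 2. On Day 5 in nuclei, 0 calls became 0 to 1 (1 without FGF1 mouse 37). In whole cells, 7 calls became 11 without the filter and ranged from 3 (without FGF1 mouse 7 or 10, or vehicle mouse 25 or 29) to 11 (without vehicle mouse 35), with 4 without vehicle mouse 20, 22 or 27. The 2 cluster interactions became 1 with DESeq2-style size factors (RLE), which lost Hsp90aa1 in clusters 0 and 1, and 3 without the filter, which added Hspa1b in clusters 0 and 6. The 1 correlated pair became 0 with group means subtracted and 0 within batches, the latter chosen after seeing the data, as were the batch blocks in nuclei. The batch block on Day 1 gave 3 calls, losing Hspa5 in ependymal cells (FDR = 0.0622) and gaining Hspa8 in the neurons labelled n06.Oxt (log2 2.33, FDR = 0.0115, against 0.91 and FDR = 0.99 without the block). The cause of these changes was not tested. With the replicate number as a block, Day 1 nuclei gave 2 calls, losing Hspa5 in ependymal cells (FDR = 0.0728). The deviations of same-numbered mice from their group means had r = −0.159, −0.0471 and 0.354. Those of mice of 1 batch had r = −0.372, −0.0725 and −0.492. With 3 mice per group these values cannot decide whether the numbers or batches pair mice. The 2 mice per group on Day 5 and the 13 to 23 ependymal nuclei per mouse limit what can be detected.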
